A study of Mus musculus with 24 samples.

Results

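The 8 genes of adrenaline handling and stress signalling described here are 8 of the 55401 genes counted in mouse gastrocnemius, a mixed-fibre calf muscle. They were Pnmt, which makes adrenaline, Maoa and Maob, which break catecholamines down, Adrb1, a receptor for adrenaline and noradrenaline, Crhr2, a receptor for urocortins, and the 3 nuclear receptors of the Nr4a family, Nr4a1, Nr4a2 and Nr4a3. Pnmt was chosen by its measured rise after burn in both ages, so its burn values are given as a description and without a test. Where its burn calls enter counts or figures, nothing is read from them. The other 7 were chosen for their roles in the same signalling, with earlier results of these data known. Male C57BL6 mice were scalded on 25% of their body surface at 5 weeks (young) or 11 weeks of age (adult), or a sham procedure, and muscle was taken 24 h later. All 4 groups, adult sham, adult burn, young sham and young burn, held 3 mice with 1 library of poly-A RNA each. Burned and sham mice alike had isoflurane and buprenorphine. Only burned mice were resuscitated, with lactated Ringer's solution, so the burn and this fluid cannot be told apart in any burn comparison. Because each library is a separate mouse, p-values measure the spread between mice of a group.

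Adrenaline is made from noradrenaline by PNMT, an enzyme best known from the chromaffin cells of the adrenal medulla. Circulating adrenaline reaches muscle through beta-adrenergic receptors, which raise cAMP through adenylyl cyclase and switch on genes with cAMP response elements, the Nr4a genes among them. Monoamine oxidases A and B, in the outer mitochondrial membrane, remove catecholamines by oxidation. CRHR2 is also coupled to cAMP and is abundant in skeletal muscle, where urocortins are its ligands.

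The promoter sequences of the Nr4a family are shown because these genes carry the cAMP response element half-site TGACG, the short motif bound by CREB. RefSeq windows of the 250 bases before the gene start on GRCm38.p6 were at hand for 6 of the 8 genes and not for Pnmt or Maob. Nr4a1, Nr4a2 and Nr4a3 each held 4 matches to TGACG on either strand (read as CGTCA on the other). Of 32851 promoter windows of this length, 17.8% held at least 1 match and 0.137% held 4 or more. Maoa and Adrb1 held 1 match each and Crhr2 none. No other motif was searched. In the stretches below, read 5′ to 3′ on the strand of the gene, capitals mark the matches. The RefSeq start of Nr4a1 lies inside the longer gene that Gencode annotates (101254269 to 101274795), so its stretch is within that gene. The last was ended where the first annotated exon of Nr4a3 begins, and it holds 3 of the 4.
Nr4a1, chr15:101266596-101266845, plus strand: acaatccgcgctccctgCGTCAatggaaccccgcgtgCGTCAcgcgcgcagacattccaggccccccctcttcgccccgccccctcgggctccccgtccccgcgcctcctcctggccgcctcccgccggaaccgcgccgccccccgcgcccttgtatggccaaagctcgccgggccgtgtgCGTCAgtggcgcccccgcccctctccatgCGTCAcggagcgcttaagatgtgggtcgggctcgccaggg
Nr4a2, chr2:57124004-57124253, minus strand: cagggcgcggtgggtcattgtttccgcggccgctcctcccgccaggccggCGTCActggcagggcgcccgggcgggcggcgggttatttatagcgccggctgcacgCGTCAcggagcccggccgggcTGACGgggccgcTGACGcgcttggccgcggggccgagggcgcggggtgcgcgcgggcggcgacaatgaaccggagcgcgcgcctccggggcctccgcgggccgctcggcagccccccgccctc
Nr4a3, chr4:48045055-48045152, plus strand: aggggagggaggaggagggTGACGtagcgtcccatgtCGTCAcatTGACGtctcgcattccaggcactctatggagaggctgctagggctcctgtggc

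Libraries held 4392605 to 5688512 counts each. Levels are given as CPM, the count of a gene scaled to the total of its library, after TMM scaling, which corrects for differences in RNA composition between libraries. A gene is called changed where the adjusted p of edgeR's quasi-likelihood test, over all genes tested, was under 0.05. Young burn replicate 2 stood apart from its group. Its log2 levels differed from the mean of the other 2 young burn libraries by 0.667 (root mean square over genes), against 0.324 to 0.454 for the same measure in the other 11 libraries. Therefore values are given over all 12 libraries (12408 genes tested) and again over the 11 without it (12651 genes tested). Muscle fibre markers were abundant in every library: the 7 markers, Acta1, Ckm and Myh4 among them, summed to between 86608 and 176290 CPM. Of the 8 genes, 7 passed the filter on low counts in both settings and Adrb1 passed in neither. None of the 8 overlaps another annotated gene.

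Pnmt was low in sham muscle of both ages and rose in every burned animal. Adult sham libraries held 10, 11 and 6 Pnmt counts, or 2.07, 2.49 and 1.27 CPM. Adult burn libraries held 107, 117 and 86 counts, or 17.9, 21.1 and 15.96 CPM. The lowest burned adult thus lay well above the highest sham adult. Young sham libraries held 8, 5 and 9 counts, or 1.95, 1.01 and 2.19 CPM, while young burn libraries held 120, 197 and 125, or 21.5, 36.0 and 25.5 CPM. The groups did not overlap in either age, and young burn replicate 2 was the highest of all. The fitted rise was 9.37-fold in adults (log2 3.23 ± 0.30, SE, n = 3 per group) and 16.2-fold in young mice (log2 4.02 ± 0.30). Without young burn replicate 2 the young rise was 13.9-fold (log2 3.80 ± 0.27). Among 12408 genes, the Pnmt fold change was the 4th highest in adults and the 6th highest in young mice.

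**Figure D1:**
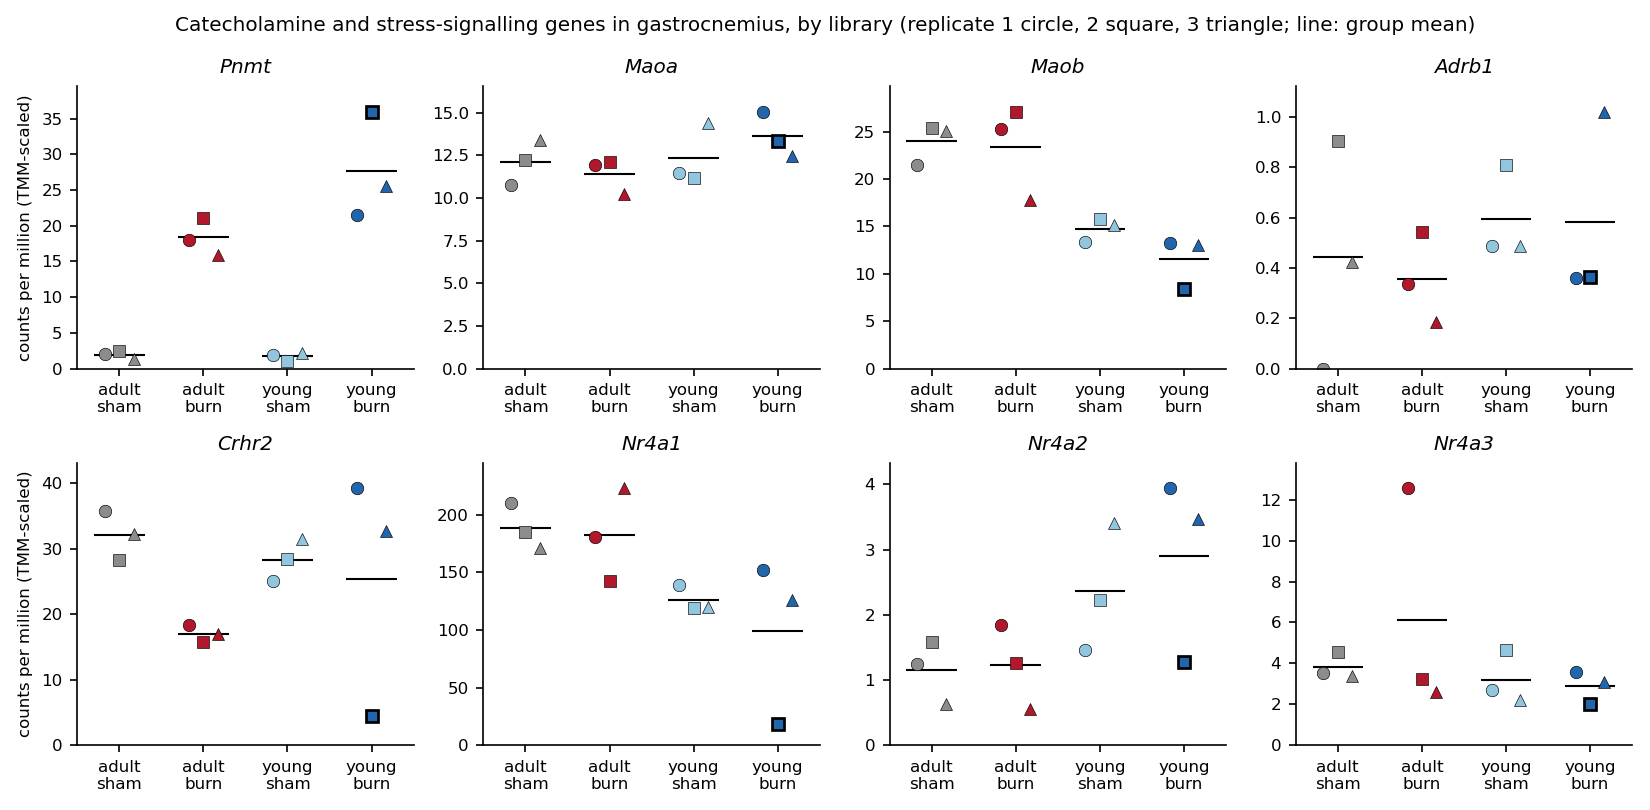
Level of each of the 8 genes (CPM, linear axis from 0) in the 12 libraries, by group, with 1 point per library and a line at the group mean. Pnmt lies at 1.01 to 2.49 in sham and at 15.96 to 36.0 in burned animals, and young burn replicate 2 (heavy outline) is far below its group in Crhr2 and Nr4a1.

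Between the ages, Pnmt levels overlapped in sham mice and did not overlap in burned mice. In sham mice it was 1.72 ± 0.62 CPM (SD, n = 3) in young and 1.94 ± 0.62 in adult muscle, a log2 difference (young minus adult) of -0.20 ± 0.43 (SE). In burned mice it was 27.7 ± 7.5 CPM in young and 18.4 ± 2.6 in adult muscle. Every young burned animal was higher than every adult one, with a log2 difference of 0.59 ± 0.22 (SE). Without young burn replicate 2 it was 0.36 ± 0.19. The order of mean levels was young sham, adult sham, adult burn and young burn, and the sham groups were the neighbours that overlapped. The rise in young mice exceeded that in adults by 0.79 ± 0.48 (SE) on the log2 scale. Without the outlying library it exceeded it by 0.57 ± 0.44. No test is given for these differences, and none is to be read from their SE, because the values of these groups chose the gene.

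The 8 genes can be read against the share of all genes called. For burn in adults, 1 of the 7 tested was called over 12 libraries (Pnmt), against 0.00806% of all genes, and 2 over 11 (Pnmt and Crhr2), against 0.909%. In young mice 1 was called in both settings (Pnmt), against 0.0645% and 0.664%. For burn over both ages 1 was called in both (Pnmt), against 0.717% and 2.15%. The adult share over 12 libraries is 1 of 12408 genes, which is Pnmt itself. Nothing is read from the Pnmt calls, since burn chose it. Between sham mice of the 2 ages 0 were called over 12 libraries, against 3.76%, with 1 at an unadjusted p under 0.05 (Maob) and 1 called by DESeq2 (Maob). Over 11 libraries 2 were called (Maob and Nr4a1), against 11.8%. Between burned mice 1 was called (Maob), against 10.8%, and 3 over 11 libraries (Maob, Crhr2 and Nr4a2), against 20.7%. For the interaction 0 were called over 12 libraries, against 0%, with 0 at an unadjusted p under 0.05 and 0 by DESeq2. Over 11 libraries 1 was called (Crhr2), against 0.0949%. Comparisons that share a sham or burn group share its libraries.

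Pnmt lies on chromosome 11 (98386450 to 98388181, GRCm38, plus strand) between Tcap and Pgap3. Tcap, which encodes the sarcomere protein telethonin, ends 1496 bases before it and is among the abundant transcripts of muscle, with 4123 to 20140 counts per library. Tcap did not follow Pnmt. It lay at 2677 to 3757 CPM in adult sham and 2227 to 3640 in adult burn muscle, and at 1521 to 3672 in young sham and 753 to 2883 in young burn muscle. Its log2 change was -0.03 ± 0.41 in adults (edgeR adjusted p = 0.994) and -0.34 ± 0.41 in young mice (edgeR adjusted p = 0.669). Per 1000 Tcap counts, there were 0.475 to 0.824 Pnmt counts in sham muscle and 4.403 to 47.8 in burned muscle. The top of that range is young burn replicate 2, whose Tcap is low, and the next highest library held 9.88.

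Pgap3, which acts on GPI-anchored proteins, lies on the opposite strand, and its gene ends 495 bases beyond the end of Pnmt. It held 19 to 26 counts per library in adults and 11 to 17 in young mice, and its levels overlapped between burn and sham in both ages. Its log2 change after burn was -0.23 ± 0.24 in adults (edgeR adjusted p = 0.870) and -0.61 ± 0.28 in young mice (edgeR adjusted p = 0.242). Stard3 and Erbb2, the next genes with more than 1 count, were not called in either age. Their log2 changes were 0.29 ± 0.32 and 0.23 ± 0.23 in adults, and 0.02 ± 0.32 and 0.19 ± 0.22 in young mice. Of the other 2 among the 3 nearest genes on either side, 1700003D09Rik had no count and Gm25048 had 1.

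**Figure D2:**
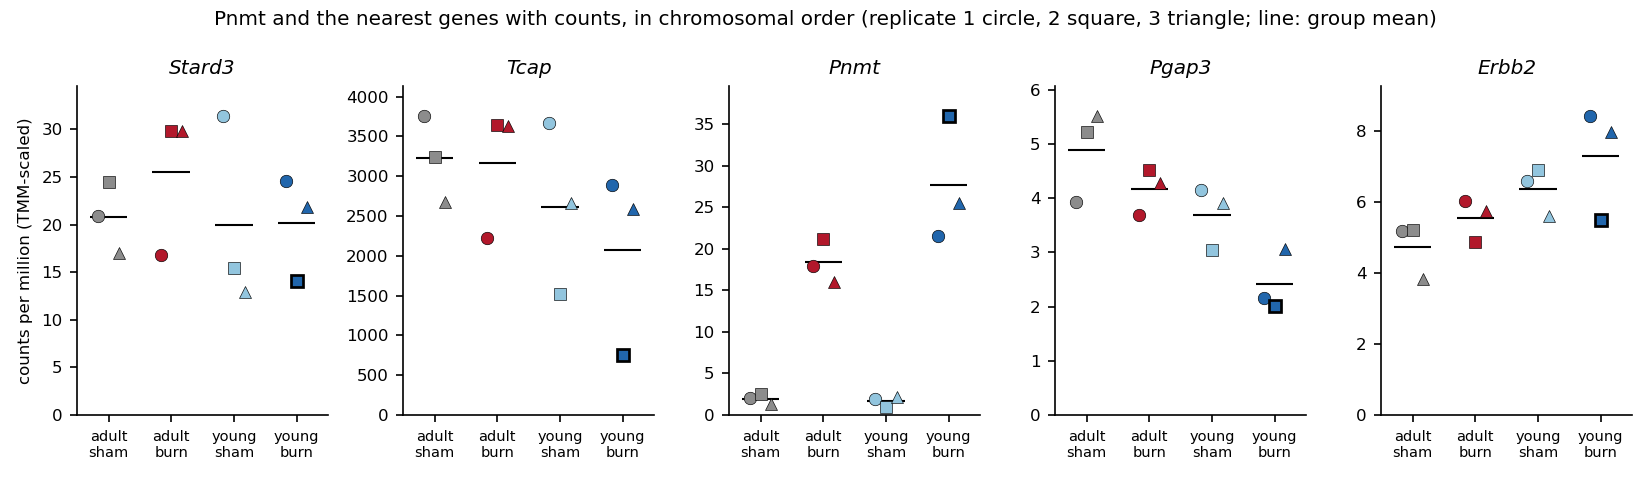
Level (CPM, linear axis from 0, a scale of its own for each gene) of Pnmt and its nearest genes with counts, in the order they lie on the chromosome, with 1 point per library and a line at each group mean. The burned animals separate from the sham animals in Pnmt and overlap with them in Tcap, Pgap3, Stard3 and Erbb2.

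The other enzymes of catecholamine synthesis were scarce. Th, the rate-limiting enzyme, had 1 count in all 12 libraries, and Dbh, which makes noradrenaline from dopamine, had 0. A count of 0 over all libraries allows a true count of up to 3, for counting error only. Ddc, which makes dopamine, had 1 or 2 counts per adult sham library and 12 to 26 per young sham library (log2 difference 3.66 ± 0.56, edgeR adjusted p = 0.00483, n = 3 per group). Ddc lay at 2 to 6 counts in adult burn and at 5 to 13 in young burn libraries, and its burn changes of 1.24 ± 0.74 in adults and -1.19 ± 0.39 in young mice were not called (edgeR adjusted p = 0.762 and 0.135). In burned mice Ddc was called higher in young muscle only without young burn replicate 2 (log2 1.54 ± 0.51, edgeR adjusted p = 0.0426). Spr, a reductase of the cofactor tetrahydrobiopterin, was lower in young than in adult burned mice (log2 -0.49 ± 0.12, edgeR adjusted p = 0.0229). Of all genes, 3.76% were called between sham mice and 10.8% between burned mice, or 20.7% between burned mice over 11 libraries. Of the 14 genes of synthesis and storage, 8 were tested, and after burn the called gene was Pnmt in both ages, which the choice of the gene fixes. With Pnmt counted, 1 of the 8 in adults and 4 in young mice stood at an unadjusted edgeR p under 0.05. The shares of all genes at that p were 6.87% and 20.3%. Over the 8, the median log2 change was 0.09 in adults and -0.05 in young mice, against 0.00 and 0.01 over all genes.

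Several defining markers of the cells that make adrenaline were at or near 0. Of 12 markers of chromaffin cells and sympathetic neurons, Dbh and Npy had 0 counts over all 12 libraries, Th had 1, Chgb had 2 and Phox2a had 7. Chga, the granule protein chromogranin A, had 0 counts in every adult sham library, 2, 0 and 2 in adult burn, 0, 2 and 4 in young sham and 5, 10 and 8 in young burn libraries. It was too scarce to be tested, and its CPM ranges overlapped between sham and burn in both ages. The 12 summed to 13.4 to 14.9 CPM in adult sham, 15.04 to 18.3 in adult burn, 16.3 to 18.8 in young sham and 17.6 to 21.3 in young burn muscle, with Stmn2, a neuronal gene, holding the most counts. The adult sums did not overlap and the young ones did. Of the 4 tested markers edgeR called 0 for burn in either age, with 0 at an unadjusted p under 0.05. Over 12 libraries edgeR called 0 of 6 macrophage and 0 of 2 tested neutrophil markers for burn in either age alone, with 1 and 1 in adults and 6 and 2 in young mice at an unadjusted p under 0.05. At that p stood 6.87% of all genes in adults and 20.3% in young mice. For burn over both ages it called Cd68 and S100a9, against 0.717% of all genes. Over 11 libraries it called C1qa, Lyz2 and S100a9 in young mice, against 0.664%, and none of these markers in adults. For burn over both ages it then called C1qa, Cd68, Csf1r, S100a8 and S100a9, against 2.15%. The 6 macrophage markers summed to 238 to 287 CPM in adult sham and 277 to 385 in adult burn, and to 222 to 302 in young sham and 390 to 657 in young burn muscle, so the adult groups overlapped and the young ones did not. The 7 neutrophil markers summed to 2.33 to 5.58 CPM in adult sham and 6.87 to 14.9 in adult burn, and to 2.03 to 4.14 in young sham and 9.61 to 27.4 in young burn muscle, with no overlap in either age and Ly6g at 0 counts. Muscle fibre markers summed to 111713 to 121743 CPM in adult sham and 110766 to 132801 in adult burn, and to 128984 to 176290 in young sham and 86608 to 113348 in young burn muscle. The adult fibre sums overlapped and the young ones did not. Of the 7 markers edgeR called 0 for burn in either age, with 0 in adults and 5 in young mice at an unadjusted p under 0.05. Their median log2 change was 0.14 in adults and -0.53 in young mice, against 0.00 and 0.01 over all genes. The part of these cells in the Pnmt values was not tested. In bulk tissue, more cells of a type and more RNA per cell cannot be told apart.

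The profile of Pnmt over the 12 libraries was nearest to those of Lcn2 and Serpina3n, genes of the acute-phase response. Likeness was measured as the root mean square gap between log2 profiles, each centred on its own mean, and the Pnmt profile itself had a standard deviation of 1.73. The gap was 0.52 for Lcn2, which encodes the iron-siderophore binding protein lipocalin, and 0.60 for the protease inhibitor gene Serpina3n. S100a9, Orm3 and S100a8 followed at 0.97, 0.97 and 0.99, and S100a8 and S100a9 are also on the neutrophil list. Lcn2 lay at 0.848 to 1.24 CPM in adult sham and 5.701 to 16.3 in adult burn, and at 0.488 to 1.42 in young sham and 9.85 to 25.9 in young burn muscle. Young burn replicate 2 was the highest library in both Pnmt and Lcn2. These genes were picked for their likeness to a gene chosen for its burn rise, so no test is attached to them. Without young burn replicate 2, 4 of the 5 stayed on the list and Fetub replaced Orm3.

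**Figure D3:**
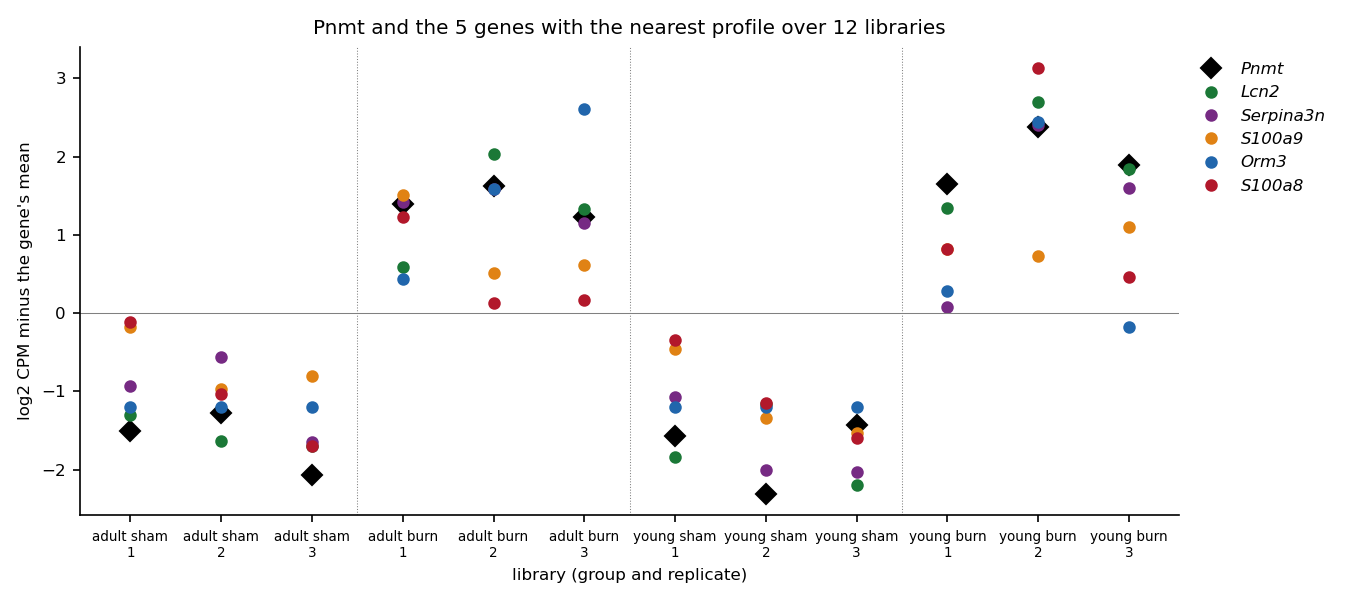
Log2 CPM minus the mean of each gene, for Pnmt (black diamonds) and the 5 genes with the nearest profile, in the 12 libraries grouped by age and treatment. Pnmt, Lcn2 and Serpina3n lie below their means in the 6 sham libraries and above them in the 6 burn libraries.

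Maoa, which prefers noradrenaline and serotonin, was steady across all 12 libraries, between 10.2 and 15.1 CPM. Adult sham libraries held 10.8, 12.2 and 13.4 CPM and adult burn libraries 11.9, 12.1 and 10.2, while young sham libraries held 11.4, 11.1 and 14.4 and young burn libraries 15.1, 13.3 and 12.5. Sham and burn overlapped in both ages. The log2 change after burn was -0.09 in adults (95% interval -0.44 to 0.27, edgeR adjusted p = 0.938) and 0.15 in young mice (-0.21 to 0.51, edgeR adjusted p = 0.637).

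Maob, the isoform that favours phenylethylamine, was lower in young than in adult burned mice and was not called for burn. It lay at 21.5, 25.4 and 25.0 CPM in adult sham and 25.3, 27.1 and 17.8 in adult burn muscle. Young sham libraries held 13.4, 15.8 and 15.1 CPM and young burn libraries 13.3, 8.40 and 13.1. Every young library was below every adult one, and the young burn libraries all lay below the young sham ones. In burned mice the level was lower in young muscle by a log2 difference of -1.02 ± 0.20 (edgeR adjusted p = 0.00855), and by -0.83 ± 0.18 without young burn replicate 2 (edgeR adjusted p = 0.00579). In sham mice the difference was -0.69 ± 0.20 and did not pass the threshold over 12 libraries (edgeR adjusted p = 0.0677), whereas it passed over 11 (-0.70 ± 0.16, edgeR adjusted p = 0.0125). The burn change was -0.03 ± 0.19 in adults and -0.35 ± 0.21 in young mice (edgeR adjusted p = 0.980 and 0.347). Among the other genes of breakdown and uptake, Sult1a1, a sulfotransferase, was higher in young sham mice over 11 libraries (log2 0.89 ± 0.26, edgeR adjusted p = 0.0369). In that comparison 11.8% of all genes were called. Of the 11 genes on that list, 7 were tested and 0 were called for burn in either age or setting, with none at an unadjusted p under 0.05.

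Adrb1, the beta1 receptor best known from heart, was close to absent. It had 29 counts in all, with 0 to 5 per library. Adult sham libraries held 0, 4 and 2 counts and adult burn libraries 2, 3 and 1, while young sham libraries held 2, 4 and 2 and young burn libraries 2, 2 and 5. The groups overlapped, and a difference was not detectable at this depth. Of the 15 genes of adrenergic receptors and their desensitisation, 8 were tested over 12 libraries and 0 were called for burn, with 1 in adults and 2 in young mice at an unadjusted p under 0.05, against 6.87% and 20.3% of all genes. Their median log2 change was -0.05 in adults and 0.26 in young mice, against 0.00 and 0.01 over all genes.

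Crhr2 was lower after burn in adult mice and not in young mice, once the outlying library was set aside. Adult sham libraries held 35.8, 28.3 and 32.2 CPM and adult burn libraries 18.3, 15.7 and 16.9, so that the groups did not overlap. Young sham libraries held 25.1, 28.4 and 31.4 CPM. Young burn libraries held 39.2, 4.38 and 32.7, the middle value being replicate 2, which was the lowest of all 12 while the other 2 lay above every young sham library. The adult change was -0.92 ± 0.46 on the log2 scale over 12 libraries (edgeR adjusted p = 0.720). Over 11 libraries it was -0.92 ± 0.13 (edgeR adjusted p = 0.00546). The adult libraries are the same in both, and the standard error moved because all groups share 1 estimate of the spread. The young change was -0.16 ± 0.45 (edgeR adjusted p = 0.874) and, without replicate 2, 0.36 ± 0.14 (edgeR adjusted p = 0.228).

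The effect of burn on Crhr2 differed between the ages by 0.76 ± 0.65 on the log2 scale over 12 libraries (edgeR adjusted p = 0.803) and by 1.28 ± 0.19 over 11 (edgeR adjusted p = 0.0196). Between the burned groups, Crhr2 was higher in young than in adult muscle by 0.58 ± 0.46 (edgeR adjusted p = 0.440), or by 1.09 ± 0.14 over 11 libraries (edgeR adjusted p = 0.00031). Sham mice of the 2 ages overlapped (log2 -0.18 ± 0.45, edgeR adjusted p = 0.862). Its ligands were scarce. Ucn, which encodes urocortin 1, had 1 to 15 counts per library, Ucn2 had 0 to 6, Crh had 0 to 4 and Ucn3 had 0. Ucn was lower in young than in adult burned mice over 11 libraries (log2 -2.33 ± 0.79, edgeR adjusted p = 0.0491) and was not tested over 12. In that comparison over 11 libraries 20.7% of all genes were called. Of 10 genes of CRH and melanocortin ligands and receptors, 2 were tested over 12 libraries and 0 were called by edgeR for burn, with 0 at an unadjusted p under 0.05 and medians of -0.57 in adults and -0.19 in young mice. The profiles most like Crhr2 were those of Ntf5, Gm49794 and Stxbp4, with gaps of 0.24, 0.26 and 0.26. Without young burn replicate 2, 0 of these 3 stayed among the nearest.

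**Figure D4:**
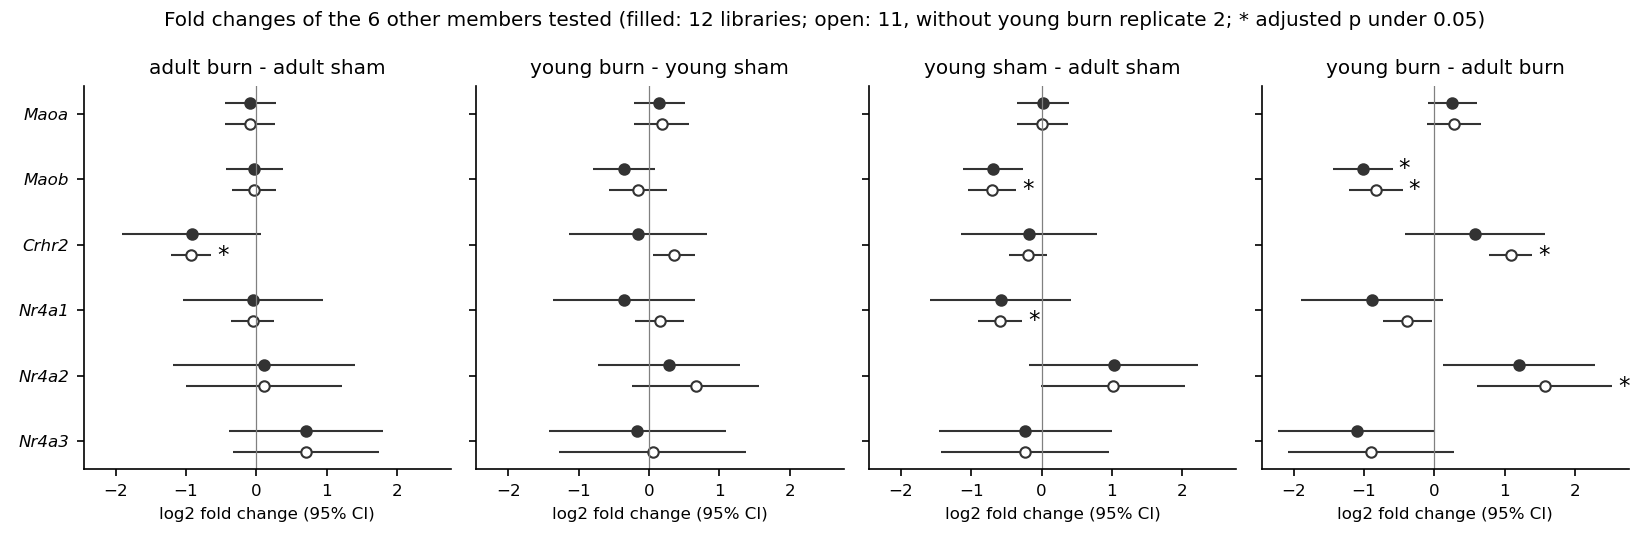
Log2 fold change with its 95% interval for the 6 tested genes other than Pnmt, in both burn comparisons and both age comparisons, over 12 libraries (filled) and over the 11 without young burn replicate 2 (open), with an asterisk at an edgeR adjusted p under 0.05. Maob is called between the burned groups in both settings, and the calls of Crhr2, Nr4a1 and Nr4a2 are made over 11 libraries.

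The Nr4a genes, orphan nuclear receptors induced within hours by beta-adrenergic stimulation and by exercise, were not called for burn at 24 h in either age. Nr4a1 was by far the most abundant per length, at 53.9 RPKM in adult sham muscle (CPM divided by the exon length in kilobases), against 0.637 for Nr4a3 and 0.284 for Nr4a2. On the same scale in adult sham muscle, Maob stood at 8.59, Crhr2 at 6.28, Maoa at 2.91, Pnmt at 1.68 and Adrb1 at 0.131. In burned muscle, Pnmt at 15.9 RPKM in adults and 24.0 in young mice came next after Nr4a1, which stood at 52.0 and 28.2.

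Nr4a1 lay at 210, 185 and 172 CPM in adult sham and 181, 143 and 223 in adult burn muscle. Young sham libraries held 140, 119 and 120 CPM and young burn libraries 152, 18.4 and 127. Except for young burn replicate 2, no library was below 119. The burn change was -0.05 in adults (95% interval -1.05 to 0.94, edgeR adjusted p = 0.988) and -0.35 in young mice (-1.36 to 0.66, edgeR adjusted p = 0.700). Over 11 libraries the adult interval narrowed to -0.36 to 0.26 and the young one to -0.20 to 0.50, around changes of -0.05 and 0.15. Sham muscle of young mice was below that of adults in all 3 animals, with a log2 difference of -0.58 ± 0.47 (edgeR adjusted p = 0.523) that was called over 11 libraries (-0.59 ± 0.15, edgeR adjusted p = 0.0184). The profiles nearest to Nr4a1 were those of Slc4a4, Popdc2 and Hs3st5, with gaps of 0.21, 0.22 and 0.24, and 0 of these 3 stayed among the nearest without young burn replicate 2.

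Nr4a2 was near the limit of detection. Adult sham libraries held 6, 7 and 3 counts and adult burn libraries 11, 7 and 3, while young sham libraries held 6, 11 and 14 and young burn libraries 22, 7 and 17. The burn change was 0.11 ± 0.60 in adults and 0.29 ± 0.47 in young mice (edgeR adjusted p = 0.978 and 0.762). Between burned mice it was higher in the young by 1.21 ± 0.50 (edgeR adjusted p = 0.134), and by 1.57 ± 0.45 over 11 libraries (edgeR adjusted p = 0.0241), where the groups did not overlap. Nr4a3 lay between 2.01 and 4.66 CPM in 11 libraries and at 12.6 in adult burn replicate 1. With that animal its burn change in adults was 0.71 ± 0.51 (edgeR adjusted p = 0.789), and without it -0.37, so that 1 library set the direction. In young mice the change was -0.16 ± 0.58 (edgeR adjusted p = 0.899).

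Downstream of the receptors, 38 of the 42 genes of the cAMP pathway were tested. For burn, 0 were called in adults and 0 in young mice over 12 libraries, with 3 and 9 of the 38 at an unadjusted p under 0.05. The shares of all genes at that p were 6.87% in adults and 20.3% in young mice. Over 11 libraries 0 were called, with 8 in each age at an unadjusted p under 0.05, against 1731 in adults and 2026 in young mice of all 12651 genes tested. The median log2 change was -0.04 in adults and 0.01 in young mice, against 0.00 and 0.01 over all genes. Pde4b, a phosphodiesterase that ends cAMP signals and is itself induced by cAMP, was called for burn over both ages (log2 0.59 ± 0.13, edgeR adjusted p = 0.0494). It lay at 129, 116 and 140 CPM in adult sham and 202, 200 and 134 in adult burn muscle, and at 78.9, 49.6 and 60.0 in young sham and 102, 101 and 106 in young burn muscle. The young groups did not overlap, and in adults 1 burned animal lay within the sham range.

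By age, Pde4b and Adcy9, an adenylyl cyclase, were lower in young sham mice (log2 -1.03 ± 0.18 and -1.51 ± 0.29, edgeR adjusted p = 0.0107 and 0.0149), and both were lower in young burned mice as well. These were 2 of 38, against 3.76% of all genes called. In burned mice 7 of 38 were called, against 10.8% of all genes, 5 lower in the young (Adcy9, Pde4b, Pde4d, Pde7a and the protein kinase A subunit Prkacb) and 2 higher (Gnai2 and Pde3a). Over 11 libraries, where 20.7% of all genes were called, Adcy7, Pde4a and Pde4c were also higher and Atf1 and Crtc2 lower. In sham mice over 11 libraries, where 11.8% of all genes were called, Akap1, Atf1, Pde4d, Pde7a and Prkacb joined the lower ones. The median of the list between burned mice was 0.02, the same as over all genes.

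Among 24 cAMP-induced and immediate early genes, the Nr4a genes among them, 22 were tested. Pde4b, which is on this list too, was called for burn over both ages, and 0 were called in either age alone over 12 libraries, with 4 in adults and 3 in young mice at an unadjusted p under 0.05, against 6.87% and 20.3% of all genes. Ier3, an early response gene, lay at 9.01, 7.70 and 7.80 CPM in young sham and at 15.9, 71.0 and 19.0 in young burn muscle, where the highest value is again replicate 2. Its log2 change of 2.12 ± 0.46 there was not called (edgeR adjusted p = 0.0686), and it was 1.11 ± 0.18 without that library (edgeR adjusted p = 0.0168). Fos, a classic early gene, had log2 differences of -0.22 ± 0.40 in adults and -0.33 ± 0.40 in young mice (edgeR adjusted p = 0.936 and 0.665). Between burned mice, 3 of 22 were lower in the young (Atf3, Pde4b and Pde4d) and 2 higher (Gem and Ier2), against 10.8% of all genes called. Over 11 libraries, where 20.7% of all genes were called, Fosl2, Jund and Nr4a2 were higher too. In young sham mice over 11 libraries, where 11.8% of all genes were called, Ier3, Nr4a1, Pde4b and Pde4d were lower and Fosl2 higher.

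The glucocorticoid response, the other hormonal arm of stress and a known inducer of Pnmt in the adrenal, was examined through 17 genes, and all 17 were tested. Over 12 libraries 0 were called by edgeR in either age alone, with 7 in adults and 4 in young mice at an unadjusted p under 0.05, against 6.87% and 20.3% of all genes. Mt1, a metallothionein induced by glucocorticoids and by metals, was called for burn over both ages (log2 1.15 ± 0.25, edgeR adjusted p = 0.0497). Its adult change was 1.13 ± 0.37 (edgeR adjusted p = 0.603), called over 11 libraries (1.13 ± 0.20, edgeR adjusted p = 0.0184) together with Cebpd (1.31 ± 0.29, edgeR adjusted p = 0.0443) and Zbtb16 (1.00 ± 0.20, edgeR adjusted p = 0.0283). In young mice the change in Mt1 was 1.17 ± 0.37 and fell to 0.47 ± 0.22 without replicate 2 (edgeR adjusted p = 0.121 and 0.307). Errfi1 was called for burn over both ages over 11 libraries (0.46 ± 0.11, edgeR adjusted p = 0.0388). The median of the 17 was 0.40 in adults and 0.16 in young mice, against 0.00 and 0.01 over all genes. Between burned mice Hsd11b1, which regenerates active glucocorticoid, Klf9 and Zbtb16 were lower in the young. These were 3 of 17, against 10.8% of all genes called. Over 11 libraries, where 20.7% of all genes were called, Cebpd and Fkbp5 were lower too and Nr3c1, the glucocorticoid receptor, was higher.

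**Figure D5:**
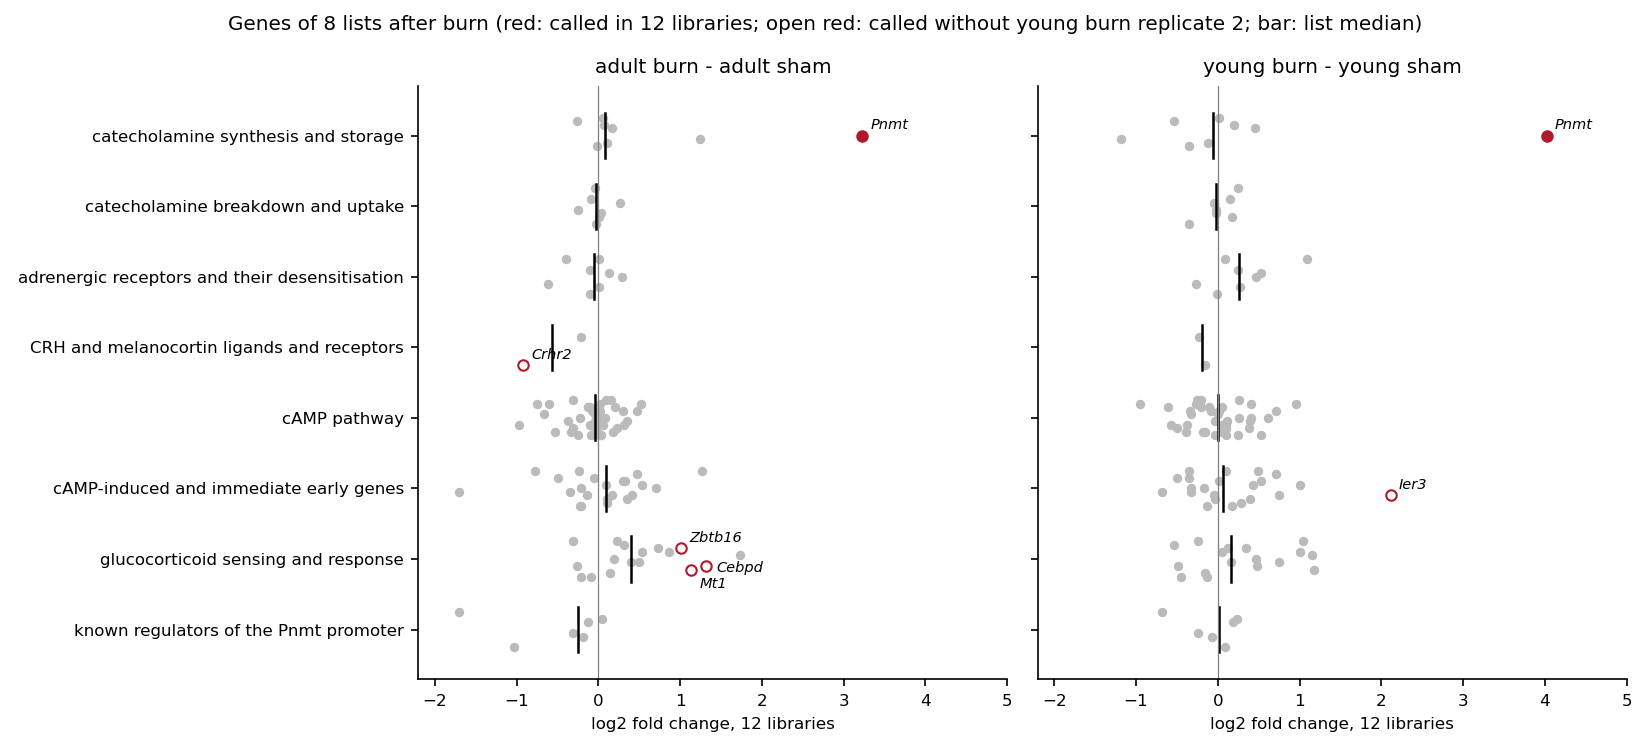
Log2 fold change after burn over 12 libraries in adults (left) and in young mice (right) for the tested genes of 8 lists, with 1 point per gene and a bar at the median of each list. Filled red points were called over 12 libraries, open red points over the 11 without young burn replicate 2, and Pnmt, at 3.23 and 4.02, lies farthest to the right in both.

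Known regulators of the Pnmt promoter were not called for burn. Of 8 such genes, 6 were tested and edgeR called 0, with 1 in adults and 0 in young mice at an unadjusted p under 0.05, against 6.87% and 20.3% of all genes. Their median log2 change was -0.25 in adults and 0.01 in young mice. Egr1, an early growth response factor that binds the Pnmt promoter, lay at 19.2, 31.0 and 8.48 CPM in adult sham and 6.04, 3.61 and 8.35 in adult burn muscle. The highest burned adult lies just under the lowest sham adult, and the log2 difference of -1.70 ± 0.47 did not pass the threshold (edgeR adjusted p = 0.555, and 0.0781 over 11 libraries). In young mice it was -0.68 ± 0.44 (edgeR adjusted p = 0.393). Nr3c1 had log2 differences of -0.31 ± 0.17 in adults and -0.24 ± 0.17 in young mice (edgeR adjusted p = 0.754 and 0.455). Between burned mice over 11 libraries, Nr3c1 and Hif1a were higher in the young (log2 0.31 ± 0.10 and 0.37 ± 0.12, edgeR adjusted p = 0.0413 for both). These were 2 of 6, against 20.7% of all genes called.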

How the data were processed

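Poly-A libraries were prepared with the NEBNext Ultra II kit. Per the study's methods, the authors mapped the reads to GRCm38 with STAR (2.7.5c in the submitters' processing notes) and took gene counts for the Gencode M25 annotation from STAR itself (quantMode). The processing notes of these libraries also list featureCounts 2.0.1, which the study's methods name for the miRNA reads. The deposited values are raw counts, whole numbers with no filter or normalization. Which strand was counted is not stated in those sources. Symbols, positions and exon lengths came from Gencode M21 on GRCm38, by identifier without version, and 55141 of 55401 genes matched. Libraries held 4392605 to 5688512 counts.

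Counts were fitted in edgeR 4.0.16 (R 4.3.3) with TMM scaling, filterByExpr (minimum count 10, minimum total 15) and a mean per group. Its quasi-likelihood test was two-sided, and p-values were adjusted by the Benjamini-Hochberg method across the genes tested. Burn over both ages came from an additive model of age and burn. Intervals are 95%. All 12 libraries entered, and every value was repeated without young burn replicate 2, which stands apart; the study also sets aside 1 young burn animal, not named, in its heat map. Log2 profiles for likeness used a prior count of 2. Alternatives were DESeq2 1.42.0, other scalings, no filter, fits on the groups compared, a replicate block and leaving out each library in turn. Scripts were tested on simulated data. Same-numbered animals correlated at -0.197 to 0.153 in their deviations from group means, with 2 of 12 correlations over the limit set of 0.1. Numbers were not taken to pair them, and the replicate block is given as an alternative. Figures were drawn with matplotlib 3.10.9. Promoter windows are RefSeq's, from GRCm38.p6. The small RNA counts were not used here.

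Named were all 8 genes, the called genes of each list (some genes of the lists are not reported here), the 3 genes on either side of Pnmt, and the nearest profiles (5 for Pnmt, 3 for Crhr2 and Nr4a1). Ucn2, Ucn3, Crh, Fos and the uncalled markers were named after their values were seen. The members and lists were chosen with earlier results of these data known. Intervals and limits from counts cover counting error only.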

Additional observations from a re-analysis of the deposited data

Results flagged for a closer look

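Crhr2 met the criterion of a burn effect that differs between the ages by a test of the difference itself, over the 11 libraries without young burn replicate 2. Burn changed it by -0.92 on the log2 scale in adults and by 0.36 in young mice, a difference of 1.28 ± 0.19 (SE, edgeR adjusted p = 0.0196). Over 12 libraries the difference was 0.76 ± 0.65 (edgeR adjusted p = 0.803). The call rests on leaving out that one animal, whose Crhr2 level was 4.38 CPM against 32.7 and 39.2 in the other young burned mice. Groups of 3 are too small for a test of single outlying samples, and none was made.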

How the results depend on the processing

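Counts of called genes among the 8 depended on young burn replicate 2. Without it, 2 were called for burn in adults (1 over 12 libraries), 2 for age in sham mice (0), 3 for age in burned mice (1) and 1 for the interaction (0). In the same order, the share of all genes called rose from 0.00806% to 0.909%, 3.76% to 11.8%, 10.8% to 20.7% and 0% to 0.0949%. The shares under the other settings are not reported here, so those counts are not read as results about the 8 genes. DESeq2 without it called 2, 2, 2 and 1. DESeq2 over 12 libraries and scaling by library size alone called 1 for age in sham mice. Without the filter on low counts, 2 were called for burn in adults, 2 for burn over both ages, 2 for age in sham mice and 4 for age in burned mice. Fits on the groups compared called 2 for burn in adults, 2 for age in sham mice and 0 for age in burned mice, where Maob reached an edgeR adjusted p of 0.0636. The replicate block over 12 libraries called 1, 1, 1, 0, 1 and 0 for burn in adults, burn in young mice, burn over both ages, age in sham mice, age in burned mice and the interaction, and changed no call. The replicate block without young burn replicate 2 called 2 for burn in adults, 2 for age in sham mice and 3 for age in burned mice. Leaving out 1 library at a time gave 1 to 2 calls for burn in adults, 0 to 2 for age in sham mice, 1 to 3 for age in burned mice and 0 to 1 for the interaction. Of 823 values of single members under 20 alternatives, 754 kept their direction and side of the threshold, 28 gained a call, 1 lost it and 40 changed sign, none of them called. The Pnmt burn changes are among the 823, and the burn counts above include Pnmt, which was chosen by its rise. For burn in young mice, Crhr2 (-0.16) turned to 0.35 with DESeq2 and to 0.30 with the replicate block, both without young burn replicate 2, and to 0.0388 with library size alone, and Nr4a1 (-0.35) to 0.14 and 0.0754 and Nr4a3 (-0.16) to 0.0587 and 0.0215 under the first 2, with 0.0499 for Nr4a3 by library size alone. Nr4a1 turned to 0.0381 for burn over both ages with DESeq2 over 11 libraries, and to 0.19 and 0.14 for the interaction with DESeq2 and the replicate block over 11. Maoa turned to -0.13 for age in sham mice by library size alone, where the median of all genes moved to -0.13 too. For burn in young mice that scaling moved the median of all genes to 0.25. Leaving out 1 library at a time, values that changed sign ran, for burn in adults, from -0.15 to 0.13 for Maob, from -0.22 to 0.10 for Nr4a1, from -0.32 to 0.44 for Nr4a2 and from -0.37 to 1.06 for Nr4a3. For burn in young mice they ran from -0.63 to 0.36 for Crhr2, from -0.81 to 0.15 for Nr4a1, from -0.0146 to 0.66 for Nr4a2 and from -0.36 to 0.24 for Nr4a3. For burn over both ages they ran from -0.0159 to 0.0915 for Maoa, from -0.37 to 0.0370 for Nr4a1 and from -0.26 to 0.55 for Nr4a3. For age in sham mice they ran from -0.42 to 0.10 for Pnmt and from -0.10 to 0.10 for Maoa, and for the interaction from -0.76 to 0.21 for Nr4a1, from -0.15 to 0.61 for Nr4a2 and from -1.23 to 0.21 for Nr4a3. The cause of these changes was not tested. With 3 mice per group and 29 counts of Adrb1 in all, depth limits what can be seen of the scarce genes. The Pnmt burn change ran from 3.00 to 3.44 in adults and from 3.72 to 4.28 in young mice over the alternatives run.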
